A study of Mus musculus with 12 samples.

Results

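Mitochondrial fatty acid oxidation was followed through 10 genes in 3T3-L1 cells, a mouse preadipocyte line that turns into fat cells in culture, after knockdown of PRMT1, an enzyme that methylates arginines of histones and other proteins. The genes were taken by name from the deposited tables, which list 39423 features, 26095 of them with at least 1 count. They were Cpt1a, Cpt1b and Cpt2 of the carnitine shuttle, the acyl-CoA dehydrogenases Acadm, Acadl and Acadvl, both subunits of the trifunctional protein (Hadha and Hadhb), the thiolase Acaa2, and Etfdh, which passes the electrons on. Of these 10 genes, 9 passed the filter on low counts in every comparison, and Cpt1b did not pass it in any.

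The study sequenced mRNA of 4 conditions with 3 libraries each. Cells were transfected with a control siRNA (siCtrl, labelled NC) or with siRNA against PRMT1 (siPRMT1), and were harvested 24 h (day 1) or 72 h (day 3) after the start of the adipogenic cocktail DMI (MDI in the labels: dexamethasone, 3-isobutyl-1-methylxanthine and insulin). All 4 conditions therefore had been transfected and were in cocktail, and no untreated cells were sequenced among the 12 libraries analysed here. Which of the PRMT1 siRNAs was sequenced is not named, so whether 1 siRNA or several stand behind the knockdown is not known here. Nothing in the labels says that the 3 libraries of a condition came from separate cultures, and the p-values then measure only the spread between these libraries.

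Fatty acids that enter a cell are activated to acyl-CoA in the cytoplasm, and long chains cross into mitochondria only as carnitine esters, which CPT1 makes at the outer membrane and CPT2 turns back at the inner one. Inside, each round of beta-oxidation shortens the chain by dehydrogenation, hydration, a further dehydrogenation and thiolysis, releasing acetyl-CoA. The dehydrogenases hand their electrons to the electron transfer flavoprotein and from there, through ETFDH, to the respiratory chain. White fat cells mainly store and release fatty acids, yet the number and enzyme content of their mitochondria rise during differentiation.

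Library totals ranged from 15116462 to 42357137 counts, so that 3 counts stood for 0.0708 to 0.199 CPM (counts scaled to the library total). Prmt1 itself lay at 82.9, 83.4 and 91.3 FPKM (fragments per kilobase of listed gene length, scaled to the library total) in siCtrl at day 1 and at 43.8, 38.6 and 41.4 FPKM in siPRMT1. At day 3 it was listed at 110.6, 120.4 and 140.3 FPKM in siCtrl and at 62.0, 71.7 and 68.5 FPKM in siPRMT1, so the libraries followed their labels at both days (log2 fold change -1.11 ± 0.0758 and -0.88 ± 0.0883). Replicate 3 of siCtrl at day 1 stood apart from the other libraries of its condition, with a chi-square per gene of 30.8 and 50.6 against them. The pairs in all the other conditions, and the remaining pair of this one, gave 4.14 to 15.8. Summed adipocyte markers rose from 148.4 to 153.7 FPKM in siCtrl at day 1 to 2802 to 3019 FPKM at day 3, and summed preadipocyte and fibroblast markers went from 1354 to 1403 FPKM down to 484.4 to 518.1 FPKM. Markers of other cell types were near absent, with sums of at most 2.86 FPKM for macrophage (Cd68 made up most of it), 0.88 FPKM for endothelial, 0.47 FPKM for hepatocyte and 0.03 FPKM for muscle markers. Ptprc, the common leukocyte antigen, Myod1 and Actn2 of muscle, and Ttr and Serpina1a of liver had 0 counts in all 12 libraries.

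The genes sit at separate places in the mouse genome (GRCm38, as the count table lists them), except for 1 pair. Hadha, on chromosome 5 from 30118304 to 30154980 on the minus strand, and Hadhb, from 30155253 to 30184593 on the plus strand, start back to back with 272 bases between their starts. The middle of this shared promoter, chr5:30155003-30155230 (GRCm38.p6, plus strand, RefSeq), is shown because the 2 subunits are compared against each other further on. It is 228 bases long, with 57.0% G and C, and its capitals mark the only match to GGGCGG, the GC box that Sp1-type factors bind, searched on both strands. Such a match is found in 35.7% of the promoter windows searched and is a description, not evidence of binding.
Hadha and Hadhb shared promoter: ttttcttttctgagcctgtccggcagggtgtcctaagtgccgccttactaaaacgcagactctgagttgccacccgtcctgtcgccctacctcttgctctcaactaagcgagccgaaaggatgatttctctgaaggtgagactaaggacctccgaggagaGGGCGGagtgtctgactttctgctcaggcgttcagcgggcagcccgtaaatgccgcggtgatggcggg

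Promoters of 8 of the 10 genes were matched by symbol in the RefSeq table (250 bases before to 50 bases after the start, GRCm38.p6). Cpt1b had no match, and Acaa2 was not looked for, because its chromosome was left out of the search. The hexamer AGGTCA, the core to which PPAR and related nuclear receptors bind, was searched on both strands, since PPARs are the textbook regulators of these genes. It was present in 3 of the 8 windows, those of Acadm, Acadvl and Cpt1a. Of the 32851 windows of the same length, which leave out the chromosome of Acaa2, 16.3% had it. The stretches around the matches are printed 5′ to 3′ on the strand of the gene, with the hexamer or its reverse complement in capitals. The Acadm match begins 249 bases, the Acadvl match 87 bases and the Cpt1a match 94 bases before the start. The Cpt1a window belongs to the start at position 3323301 of chromosome 19 and lies outside the exons that the count table lists for Cpt1a, downstream of its first listed base at 3322325.
Acadm, chr3:153944840-153944893, minus strand: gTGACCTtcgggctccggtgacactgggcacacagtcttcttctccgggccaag
Acadvl, chr11:70015486-70015539, minus strand: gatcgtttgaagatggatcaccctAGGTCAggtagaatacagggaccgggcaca
Cpt1a, chr19:3323183-3323236, plus strand: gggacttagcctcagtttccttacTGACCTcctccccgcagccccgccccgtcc
Acadm and Acadvl rose from day 1 to day 3 and Cpt1a fell, as given further on, so promoters with the hexamer stood on both sides. A window without the hexamer says only that these letters are not in it.

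Acadl and Acadvl each have a second entry in the tables, on an extra scaffold of the reference that carries another copy of the region, and this decides what the name Acadl shows. The entry on chromosome 1 (66830839 to 66863309, minus strand), which is the one named Acadl, held 380 counts over the 12 libraries. The scaffold entry, named with a suffix and with the same 11 exons and listed length of 1948 bases, held 26603 counts. Between 98.0% and 98.9% of the Acadl counts of each library were thus on the scaffold. The genes copied on that scaffold were alike in this. All 5 with at least 100 counts, Acadl itself among them, had 89.5% to 98.6% of their counts there. Acadvl showed the opposite split, with 4555 counts on chromosome 11 (70010183 to 70015428, minus strand) and 252 on its scaffold, 2.23% to 11.8% of a library. How reads that fit both copies were assigned is not given in the sources used here. Values are therefore given for Acadl as named, for its scaffold entry and, as an alternative chosen after seeing the data, for the sum of the entries.

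**Figure D1:**
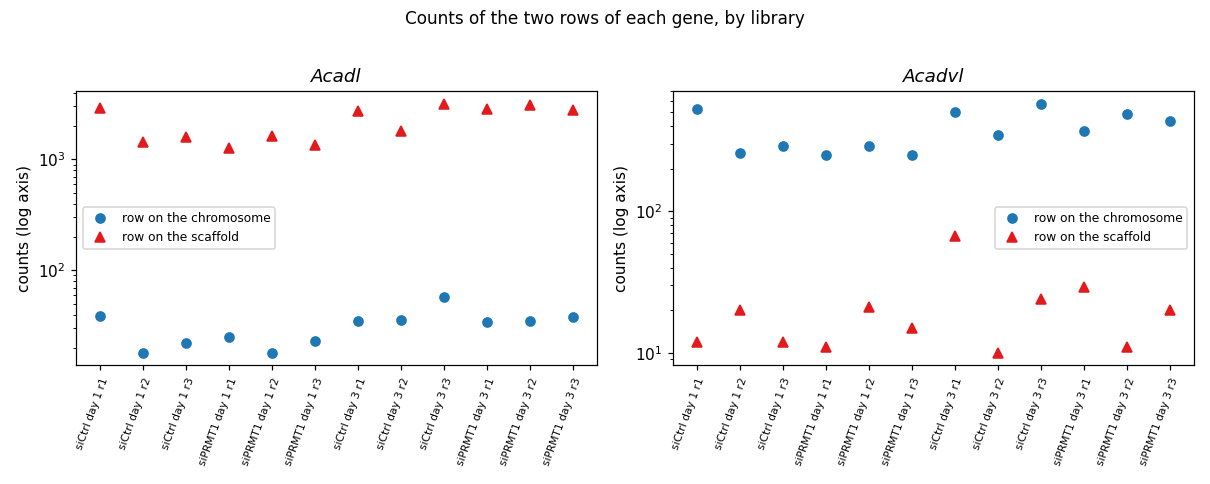
Counts (log axis) of Acadl and Acadvl in each of the 12 libraries (r, replicate), with circles for the entry on the chromosome and triangles for the entry on the scaffold. Acadl had 18 to 57 counts on the chromosome and 1265 to 3180 on the scaffold, whereas Acadvl had 248 to 573 on the chromosome and 10 to 67 on the scaffold.

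The level of the genes was compared between genes in FPKM. In siCtrl at day 1, Hadha (72.1 ± 3.995 FPKM, SD, n = 3) and Acadm (69.7 ± 2.33) stood highest and their ranges overlapped. They were followed by Etfdh (42.8 ± 2.46), Acaa2 (37.3 ± 2.84) and Cpt2 (32.6 ± 4.74), the last pair overlapping. Hadhb (18.8 ± 1.19) and Cpt1a (18.4 ± 2.06) overlapped as well, and Acadvl (5.78 ± 0.375) and Acadl as named (0.477 ± 0.0503) came below them without overlap. Cpt1b, the muscle-type CPT1, had only 1 to 7 counts a library (0.02 to 0.10 FPKM). It shares 94.8% of its exon bases with Gm44502 on the same strand, which had 0 counts. How reads in such shared exons were counted is not given in the sources used here, so these few counts do not show that Cpt1b was absent. Cpt1a, the liver-type CPT1, stood above Cpt1b in the deposited FPKM of all 12 libraries.

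The order depended on the length and the entries used. The listed length of Hadhb is 5381 bases, while its longest GENCODE coding transcript has 2048 bases. With the entries summed and this length, Hadhb stood at 49.3 ± 3.12 FPKM in siCtrl at day 1, below Hadha (68.9 ± 3.81) and above Etfdh (41.0 ± 2.36). Acadl then stood at 37.0 ± 2.28 FPKM, overlapping both Etfdh and Acaa2 (36.9 ± 2.81), so that long-chain acyl-CoA dehydrogenase was in the middle of the order rather than near its end. Acadvl, the very long-chain enzyme, remained low at 6.10 ± 0.353 FPKM.

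At day 3 the order of the deposited levels differed at its top and in its middle. Acadm, the medium-chain acyl-CoA dehydrogenase, was highest in siCtrl (151.3 ± 4.51 FPKM), above Hadha (109.3 ± 3.59), with no overlap. Cpt2 (79.0 ± 2.63) now stood above Etfdh (71.6 ± 3.15) and Acaa2 (64.4 ± 2.36), again with no overlap between neighbours. In siPRMT1 at day 3, Cpt2 (59.4 ± 4.25) instead stood below Etfdh (66.6 ± 4.55) and Acaa2 (66.4 ± 0.902). With the entries summed and the GENCODE lengths, Cpt2 (58.9 ± 4.21) and Etfdh (63.9 ± 4.37) overlapped in siPRMT1 at day 3. On that scale Hadhb (90.8 ± 9.85) overlapped Cpt2 (78.3 ± 2.60) in siCtrl at day 3. The summed level of the 10 genes took Acadl as named, without the scaffold entry that held nearly all of its counts. This sum ran from 283.8 to 318.6 FPKM in siCtrl and from 256.5 to 266.1 FPKM in siPRMT1 at day 1. At day 3 it ran from 525.0 to 542.4 FPKM in siCtrl and from 466.6 to 497.4 FPKM in siPRMT1.

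**Figure D2:**
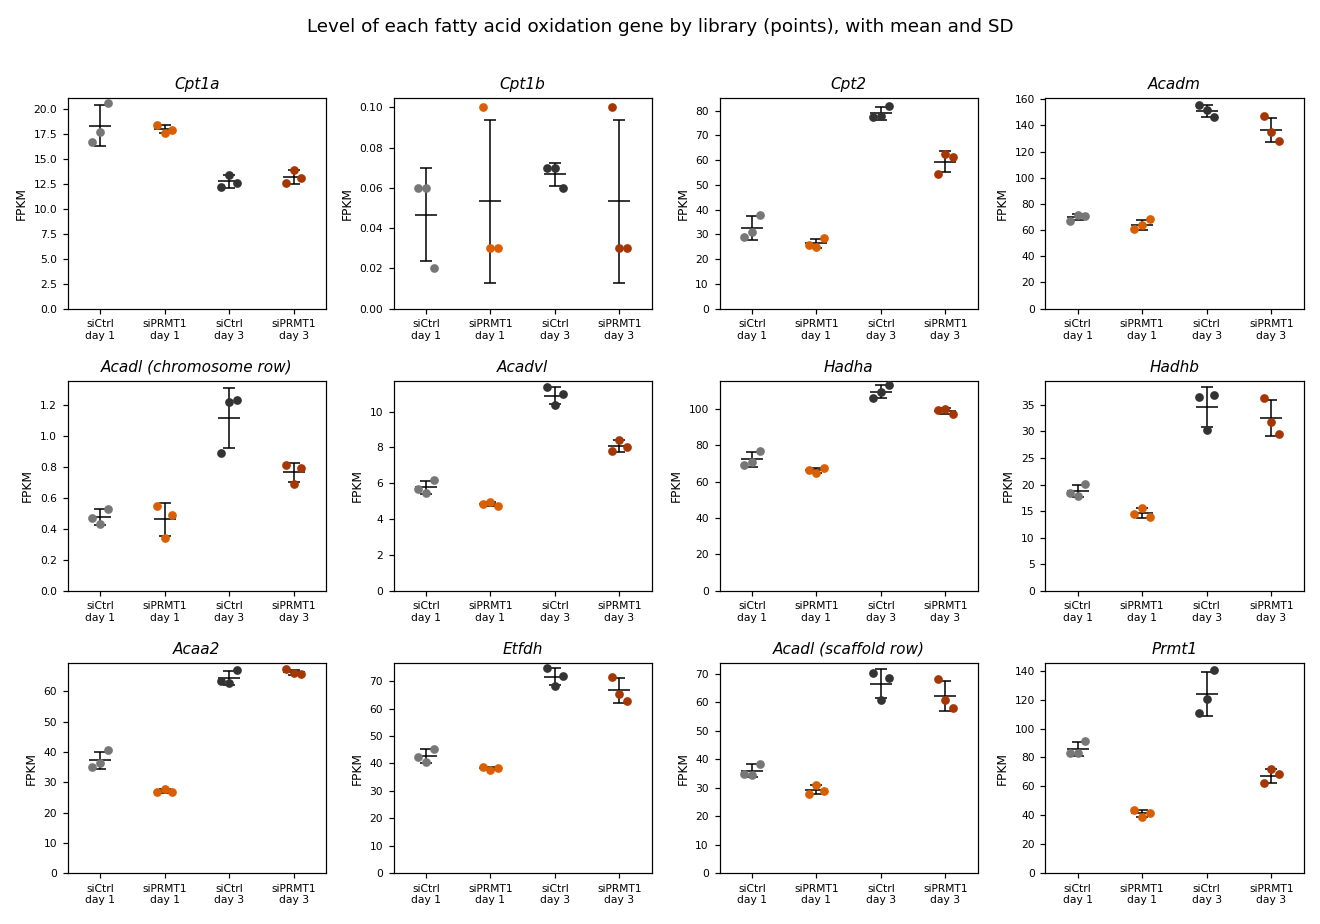
FPKM (y axis, from 0, a scale of its own in each panel) of the 10 genes, of the scaffold entry of Acadl and of Prmt1 in the 4 conditions, with points for libraries and bars for the mean and SD of 3 libraries. All genes but Cpt1a and Cpt1b sit higher at day 3 than at day 1, Cpt1a sits lower, and the siPRMT1 points of Acaa2 lie below siCtrl at day 1 but among them or above at day 3.

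The course from day 1 to day 3 was the largest difference the genes showed. In siCtrl, 8 of the 9 tested genes rose and Cpt1a fell, by edgeR's quasi-likelihood test at an adjusted p below 0.05 and an absolute log2 fold change above 0.5. Over all 13829 genes tested, 22.7% rose and 20.4% fell by this rule. The median log2 fold change of the 9 genes was 0.81, against -0.004 over all genes. In siPRMT1, the same rule called 8 of 9 genes higher, against 19.0% of the 14224 genes tested, and the median of the 9 was 0.79. In FPKM, 8 of the 10 genes lay higher at day 3 without overlap in each course and Cpt1a lay lower. Over all tested genes, 36.9% lay higher and 27.4% lower without overlap in siCtrl, and 34.4% and 31.8% in siPRMT1. The courses use separate libraries and are given side by side.

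Cpt2, which regenerates acyl-CoA inside the mitochondrion, lay at 29.0, 30.97 and 37.98 FPKM in siCtrl at day 1 and at 77.3, 77.8 and 82.0 FPKM at day 3. All day 3 libraries were well above all day 1 libraries, with a log2 fold change of 1.21 ± 0.11 (SE, adjusted p = 8.87e-06, edgeR) in siCtrl and 1.16 ± 0.0685 (adjusted p = 4.62e-09) in siPRMT1. Acadm went from 67.1, 71.5 and 70.6 FPKM to 155.8, 151.5 and 146.7 FPKM in siCtrl, a log2 fold change of 1.05 ± 0.0729 (adjusted p = 1.39e-06, edgeR). Its rise in siPRMT1 was 1.08 ± 0.0669 on the log2 scale (adjusted p = 7.68e-09, edgeR). Both genes thus slightly more than doubled between the days whichever siRNA was used.

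Acadvl, Etfdh, Hadha, Hadhb and Acaa2 rose by less than Cpt2 and Acadm in siCtrl. Acadvl, the inner membrane enzyme for the longest chains, rose by 0.85 on the log2 scale in siCtrl and 0.73 in siPRMT1, and Etfdh by 0.67 and 0.79. Hadha, which holds the hydratase and long-chain dehydrogenase activities of the trifunctional protein, had the smallest rise in both, at 0.53 ± 0.0760 (adjusted p = 1.99e-04, edgeR) in siCtrl and 0.57 ± 0.0520 (adjusted p = 4.28e-07) in siPRMT1. Its value in siCtrl was close to the fold threshold, and it passed that threshold in only 2 of the 6 fits that left out 1 library, the log2 fold change running from 0.46 to 0.57. Hadhb, the thiolase subunit of the same protein, rose by 0.81 in siCtrl and 1.14 in siPRMT1. Acaa2, the soluble thiolase for shorter chains, rose by 0.72 and 1.27.

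Acadl as named rose by 1.15 ± 0.223 on the log2 scale in siCtrl and 0.72 ± 0.226 in siPRMT1, on 18 to 57 counts a library. Its scaffold entry, with 1265 to 3180 counts a library, rose by 0.82 ± 0.0907 in siCtrl (adjusted p = 3.34e-05, edgeR) and by 1.08 ± 0.0746 in siPRMT1 (adjusted p = 2.41e-08). The direction was the same for both entries, while the entry with few counts placed siCtrl above siPRMT1 and the entry with many counts placed it below. For Acadl as named the rise in siPRMT1 did not hold in every fit, since its adjusted p was 0.071 without siPRMT1 day 1 replicate 2 and 0.104 in DESeq2.

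Cpt1a ran against the other genes. This enzyme commits long-chain fatty acids to oxidation and is the step that malonyl-CoA, the first product of fatty acid synthesis, inhibits. It lay at 16.7, 17.7 and 20.7 FPKM in siCtrl at day 1 and at 12.2, 13.5 and 12.6 FPKM at day 3, with no overlap between the days. The log2 fold change was -0.60 ± 0.104 (adjusted p = 7.49e-04, edgeR). With limma on log2(FPKM + 1), with or without the filter, it was -0.49, past the adjusted p but not the fold threshold. In siPRMT1 it went from 18.4, 17.7 and 17.96 FPKM to 12.6, 13.9 and 13.1 FPKM, a log2 fold change of -0.46 ± 0.0599 (adjusted p = 1.37e-05), which passed the adjusted p but not the fold threshold. By the adjusted p alone 31.2% of all genes fell in that comparison. As a description over the 12 libraries, which share the split between the days, the Pearson r of Cpt1a with the mean of the other 9 genes (standardized log2(FPKM + 1)) was -0.916. Cpt1b had 0.178, on its few counts, and the other 8 genes had 0.908 to 0.984.

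The knockdown differences were small beside the course. At day 1 the log2 fold change of siPRMT1 against siCtrl was negative for all 9 tested genes, with a median of -0.21, against 0.01 over all 13689 genes tested, of which 48.3% were negative. Acaa2 was called lower, 1 of 9 genes, where 1.61% of all genes were called lower. By the adjusted p alone, without a fold threshold, Acaa2 and Hadhb passed, 2 of 9 genes, where 4.38% of all genes passed downwards. In FPKM, siPRMT1 lay below siCtrl without overlap for 6 of the 10 genes (Cpt2, Acadvl, Hadha, Hadhb, Acaa2 and Etfdh), which 11.9% of all tested genes did.

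Acaa2 was listed at 35.1, 36.3 and 40.5 FPKM in siCtrl at day 1 and at 26.8, 27.9 and 26.9 FPKM in siPRMT1. Every siPRMT1 library was below every siCtrl library, and the log2 fold change was -0.50 ± 0.0775 (adjusted p = 0.0105, edgeR), a level 29.5% lower. The fold lies at the threshold, and the adjusted p held in 3 of the 6 fits that left out a library, since it was 0.0535 without siCtrl replicate 2, 0.0578 without siPRMT1 replicate 1 and 0.0706 without siPRMT1 replicate 3. Hadhb lay at 18.5, 17.8 and 20.1 FPKM in siCtrl and at 14.5, 15.7 and 13.8 FPKM in siPRMT1, again without overlap, with a log2 fold change of -0.41 ± 0.0791 (adjusted p = 0.0219, edgeR). Its adjusted p passed in 1 of the 6 fits that left out a library, that without siCtrl replicate 3, and was up to 0.101 in the others.

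The other genes did not pass the test at day 1. Cpt2 was at 25.6, 25.1 and 28.6 FPKM in siPRMT1 and had a log2 fold change of -0.35 ± 0.106 (adjusted p = 0.0823, edgeR). Acadvl had -0.31 ± 0.0941 (adjusted p = 0.0887), Etfdh -0.21 ± 0.0675 (adjusted p = 0.098), Hadha -0.18 ± 0.0605 (adjusted p = 0.118) and Acadm -0.17 ± 0.0676 (adjusted p = 0.166) in the same edgeR fit. The outcome depended on the method and on the library that stood apart. With all libraries kept, Cpt2 passed the adjusted p in DESeq2, at -0.36 (adjusted p = 0.0337). It also passed in edgeR with no filter on low counts (adjusted p = 0.0494). Without siCtrl day 1 replicate 3, in which 8 of the 10 genes had their highest FPKM of siCtrl at day 1, the fold changes of Cpt2, Acadvl, Etfdh and Hadha shrank to -0.24, -0.26, -0.18 and -0.14, while the adjusted p of each fell below 0.05, to 0.0174, 0.0478, 0.0311 and 0.0499. In that fit 6 of 9 genes passed the adjusted p, against 2 with all libraries, and over all genes the share that passed downwards was 15.0%, against 4.38%. In 1 model of all 12 libraries, 6 of 9 genes also passed the adjusted p downwards at day 1, where 8.10% of all genes did. Without that replicate no gene of the 9 passed the fold threshold, Acaa2 lying at -0.45. Cpt1a showed no clear difference, with a log2 fold change of -0.08 ± 0.0857, whose approximate 95% interval ran from -0.24 to 0.09.

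Acadl is again split between its entries at day 1. As named it had a log2 fold change of -0.11 ± 0.243 (adjusted p = 0.826, edgeR), with 0.47, 0.43 and 0.53 FPKM in siCtrl and 0.55, 0.34 and 0.49 FPKM in siPRMT1. The groups overlapped. Its scaffold entry lay at 34.9, 34.4 and 38.4 FPKM in siCtrl and at 27.8, 30.98 and 28.9 FPKM in siPRMT1 without overlap, a log2 fold change of -0.35 ± 0.0768 (adjusted p = 0.0332, edgeR). With the entries summed, Acadl passed the adjusted p at -0.36 ± 0.0738 (adjusted p = 0.025), and 3 of 9 genes passed in that fit, where 5.30% of all genes passed downwards.

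At day 3 the genes that stood lowest in siPRMT1 were others. None of the 9 tested genes was called with the fold threshold, where 3.80% of all 14039 genes tested were called lower. By the adjusted p alone 2 of 9 genes, Cpt2 and Acadvl, were lower, where 8.94% of all genes passed downwards. At an unadjusted p below 0.05 in edgeR, 5 of 9 passed, with Acadl as named, Hadha and Acadm added to these, where 31.3% of all genes passed in either direction, and DESeq2 also called 0 of the genes with the fold threshold and passed 2 without it. The median of the 9 was -0.15, against 0.01 over all genes, and 7 of 9 were negative. Without overlap in FPKM, siPRMT1 lay lower for 4 of the 10 genes (Cpt2, Acadl as named, Acadvl and Hadha), which 17.5% of all tested genes did.

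Cpt2 lay at 77.3, 77.8 and 82.0 FPKM in siCtrl at day 3 and at 54.5, 62.4 and 61.3 FPKM in siPRMT1. The groups were clearly apart, and the log2 fold change was -0.42 ± 0.0706 (adjusted p = 8.68e-04, edgeR), a level 25.2% lower. Acadvl lay at 11.4, 10.4 and 10.96 FPKM in siCtrl and at 7.80, 8.42 and 8.03 FPKM in siPRMT1, a log2 fold change of -0.44 ± 0.0846 (adjusted p = 0.00247). Both genes passed the adjusted p in all 6 fits that left out a library, with adjusted p of at most 0.00707 for Cpt2 and 0.0116 for Acadvl. The membrane-bound enzymes CPT2 and VLCAD act on long chains, the former just before the latter.

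Apart from Acadl, the other tested genes had smaller differences at day 3. Hadha had a log2 fold change of -0.15 ± 0.0656 (adjusted p = 0.124, edgeR) with groups that did not overlap, at 105.8, 109.1 and 112.9 FPKM in siCtrl and 99.4, 99.7 and 96.9 FPKM in siPRMT1. Acadm had -0.15 ± 0.0715 (adjusted p = 0.159), Etfdh -0.11 ± 0.0724 (adjusted p = 0.322) and Hadhb -0.09 ± 0.0897 (adjusted p = 0.515). Acaa2 lay at 63.3, 62.9 and 67.2 FPKM in siCtrl and at 67.4, 66.1 and 65.6 FPKM in siPRMT1. These groups overlapped, and the log2 fold change of 0.04 ± 0.0672 had an approximate 95% interval from -0.10 to 0.17. Cpt1a had 0.04 ± 0.0752, with an interval from -0.10 to 0.19.

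For Acadl at day 3 the entry with few counts gave the larger value. As named it lay at 0.89, 1.22 and 1.23 FPKM in siCtrl and at 0.81, 0.69 and 0.79 FPKM in siPRMT1, a log2 fold change of -0.55 ± 0.2 (adjusted p = 0.0727, edgeR). It passed both thresholds, at -0.71 and an adjusted p of 0.0339, only without siCtrl day 3 replicate 1. The scaffold entry lay at 70.3, 60.8 and 68.4 FPKM in siCtrl and at 68.0, 60.7 and 57.9 FPKM in siPRMT1, groups that overlapped, with a log2 fold change of -0.10 ± 0.0795 (adjusted p = 0.406, edgeR). The sum of the entries gave -0.11 ± 0.0788 (adjusted p = 0.365).

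**Figure D3:**
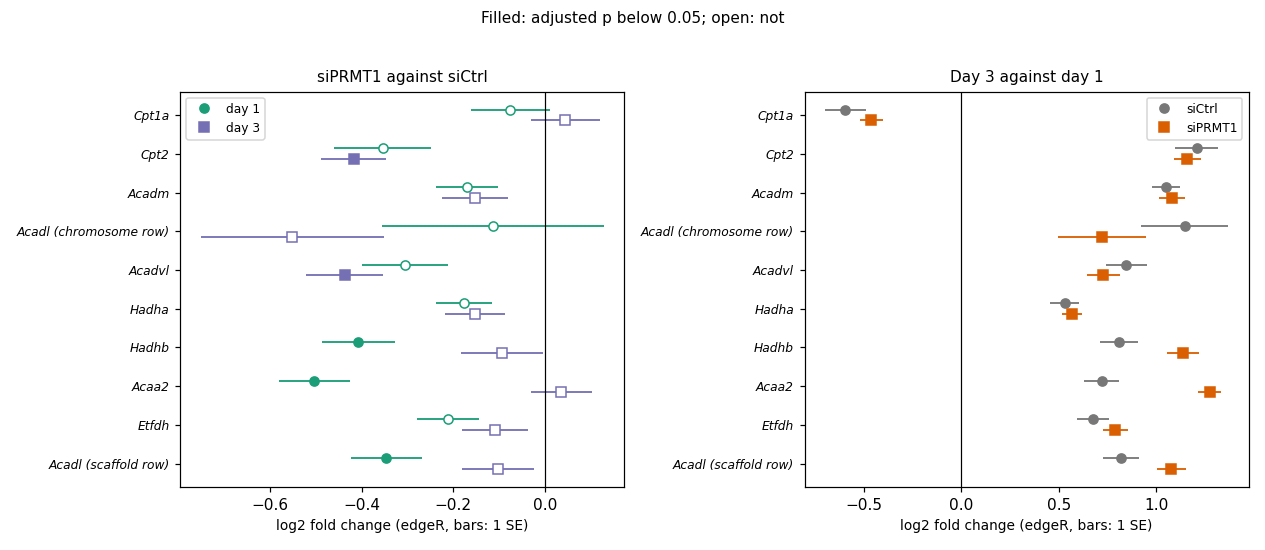
log2 fold changes from edgeR (x axis, bars for 1 SE) of the 9 tested genes and the scaffold entry of Acadl, siPRMT1 against siCtrl at day 1 (circles) and day 3 (squares) on the left, and day 3 against day 1 in siCtrl (circles) and siPRMT1 (squares) on the right. Filled marks had an adjusted p below 0.05. Acaa2 and Hadhb are filled at day 1 on the left and Cpt2 and Acadvl at day 3, and on the right all marks are filled, with Cpt1a to the left of 0.

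Whether a knockdown difference differed between the days was tested as an interaction over all 12 libraries. Only Acaa2 of the 9 genes passed, with a difference of the log2 fold changes (day 3 minus day 1) of 0.56 ± 0.102 (adjusted p = 0.00279, edgeR). It was 1 of 9, where 4.77% of the 14612 genes tested were called higher. Acaa2 kept an adjusted p below 0.05 in all 12 fits that left out a library, with differences from 0.47 to 0.61. Hadhb had 0.34 ± 0.134 (adjusted p = 0.119), which did not pass, although with no filter on low counts it did at 0.38 (adjusted p = 0.0333). For Cpt2 (-0.04 ± 0.136) and Acadvl (-0.11 ± 0.12) the difference was small and its intervals, from -0.31 to 0.22 and from -0.35 to 0.12, include 0. Passing at day 3 and not at day 1 is therefore no sign that these genes responded differently at the 2 days.

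Hadha and Hadhb, which make up 1 protein complex and start from the shared promoter printed above, did not keep a fixed ratio of counts. In each library this ratio does not depend on the scaling of the library. Hadhb had 37.5, 35.2 and 36.8 counts per 100 Hadha counts in siCtrl at day 1 and 30.7, 33.9 and 28.8 in siPRMT1. At day 3 it had 48.5, 38.9 and 45.8 in siCtrl and 51.2, 44.8 and 42.7 in siPRMT1. The siPRMT1 libraries thus lay below siCtrl at day 1 and among them at day 3, and the day 3 libraries lay above the day 1 libraries in both. An exact two-sided permutation test of 3 against 3 libraries gave p = 0.1 for siPRMT1 against siCtrl at day 1 and for each course, the smallest p this design allows, and p = 0.7 at day 3. Hadha shares 77 exon bases (2.01%) with the antisense gene Gareml, which had 139 counts in all, and whether strand was used in counting is not given in the sources used here.

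**Figure D4:**
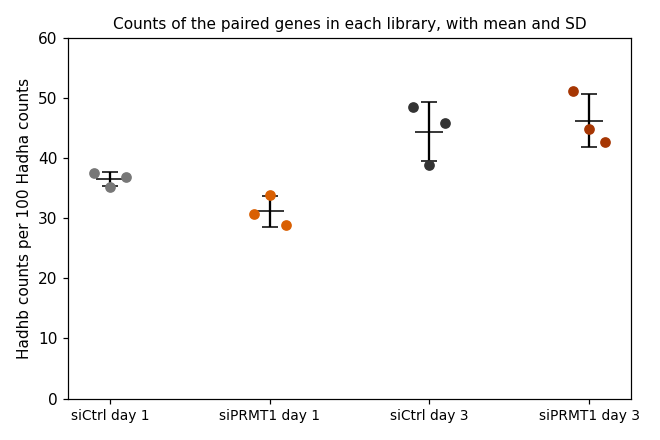
Hadhb counts per 100 Hadha counts (y axis, from 0) in each library of the 4 conditions, with points for libraries and bars for the mean and SD of 3 libraries. The ratio ran from 28.8 to 33.9 in siPRMT1 at day 1, from 35.2 to 37.5 in siCtrl at day 1, and from 38.9 to 51.2 in the day 3 libraries.

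Other genes of the pathway were read from 8 lists with 53 genes in the tables, 47 of them tested. These lists, like the 10 genes, were chosen with earlier results of these data known. From day 1 to day 3, 26 of the 47 rose and 2 fell in siCtrl, with a median log2 fold change of 0.57. In siPRMT1 26 rose and 2 fell, with a median of 0.62. Over all genes tested, 22.7% rose and 20.4% fell in siCtrl. In siPRMT1 19.0% of all genes rose and 2481 of 14224 fell. Hadh, the dehydrogenase of the third step for shorter chains, went from 54.5 ± 4.20 to 157.4 ± 6.22 FPKM in siCtrl, a rise of 1.46 on the log2 scale. Acads, the short-chain acyl-CoA dehydrogenase, rose by 1.37, Echs1, the short-chain hydratase, by 0.70, and Acat1, which cleaves acetoacetyl-CoA, by 0.68. Etfb, a subunit of the flavoprotein that feeds ETFDH, rose by 0.86. Pccb and Mut, of the route that takes up the propionyl-CoA left from odd chains, rose by 1.33 and 0.57.

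In the carnitine system the courses were unequal. Crat, which moves short acyl groups to carnitine, went from 16.3 ± 2.67 to 104.3 ± 5.45 FPKM in siCtrl, a rise of 2.61 on the log2 scale, larger than that of any of the 10 genes. Slc22a5, the carnitine importer of the plasma membrane, rose by 1.17. Cpt1c, the neuronal relative of CPT1, fell by 1.94 in siCtrl and by 1.54 in siPRMT1. In siCtrl it went from 10.9 ± 2.095 to 2.95 ± 0.196 FPKM. Of the 3 CPT1 genes, 2 were thus lower at day 3, all but Cpt1b with its few counts. In the malonyl-CoA list, Acacb, the acetyl-CoA carboxylase at the outer mitochondrial membrane, rose by 0.74 in siCtrl, Mlycd, which degrades malonyl-CoA, by 0.73 and Acsf3, which makes it inside mitochondria, by 1.10.

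Among the regulators, Pparg, the nuclear receptor of fat cell differentiation, rose from 26.6 ± 1.73 to 112.2 ± 2.71 FPKM in siCtrl, and Ppargc1b, a coactivator of mitochondrial genes, from 0.337 ± 0.0513 to 5.42 ± 0.317 FPKM. Esrra, the receptor that binds promoters of oxidative genes, rose by 1.497 on the log2 scale. Pdk4, a kinase that shuts pyruvate dehydrogenase and is often induced with fatty acid oxidation, fell by 1.41 in siCtrl and by 1.16 in siPRMT1. Acot7 and Acot2, thioesterases that split acyl-CoA, rose by 0.57 and 1.67 in siCtrl. Oxct1 of ketone body use rose by 0.63. Of 20 genes for mitochondrial content, such as Cs, Phb, Phb2 and Uqcrc2, 10 rose by the call rule in siCtrl and 19 in siPRMT1. Over all genes 22.7% and 19.0% rose. The medians of the 20 were 0.52 and 0.71, beside the 8 of the 10 genes that rose. The part of mitochondrial content in the rise of those 8 genes was not tested.

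With the knockdown, most tested genes of the pathway lists had negative values. At day 1, 40 of the 47 tested were negative, with a median log2 fold change of -0.17, and 2 were called lower and 1 higher. Over all 13689 genes tested, 48.3% were negative, 220 were called lower (1.61%) and 267 higher. The list of other beta-oxidation enzymes also holds Acad8, Acadsb and Hibch, which act in the breakdown of branched-chain amino acids. All 15 of its genes were negative, with a median of -0.21. By edgeR none of them was called and 2 passed the adjusted p alone, where 4.38% of all genes passed downwards. At day 3, 38 of 47 were negative, with a median of -0.15, and 2 were called lower and 2 higher. Over all 14039 genes tested, 48.7% were negative, 534 were called lower (3.80%) and 399 higher. Crat lay at 62.2 to 70.1 FPKM in siPRMT1 and 99.8 to 110.4 FPKM in siCtrl at day 3, a log2 fold change of -0.64 ± 0.0734 (adjusted p = 3.28e-05, edgeR). Acads had -0.42 ± 0.0765 (adjusted p = 0.00171) and Hadh -0.23 ± 0.0671 (adjusted p = 0.0285), both past the adjusted p but not the fold threshold. All 4 genes of the malonyl-CoA list passed the adjusted p downwards at day 3, where 8.94% of all genes did. Their median was -0.30, with Acacb at -0.29 and Mlycd at -0.28.

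A few genes of the lists moved otherwise. Acot2 was higher in siPRMT1 at day 1, at 2.73 to 3.31 FPKM against 1.32 to 1.77 FPKM, with 0.95 ± 0.148 (adjusted p = 0.0108, edgeR), and had -0.07 ± 0.116 at day 3. Its interaction of siRNA and day was -1.01 ± 0.193 (adjusted p = 0.00403, edgeR). Ppargc1a, named after its values were seen, was higher in siPRMT1 at day 3, with 0.55 ± 0.135 (adjusted p = 0.0117).

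**Figure D5:**
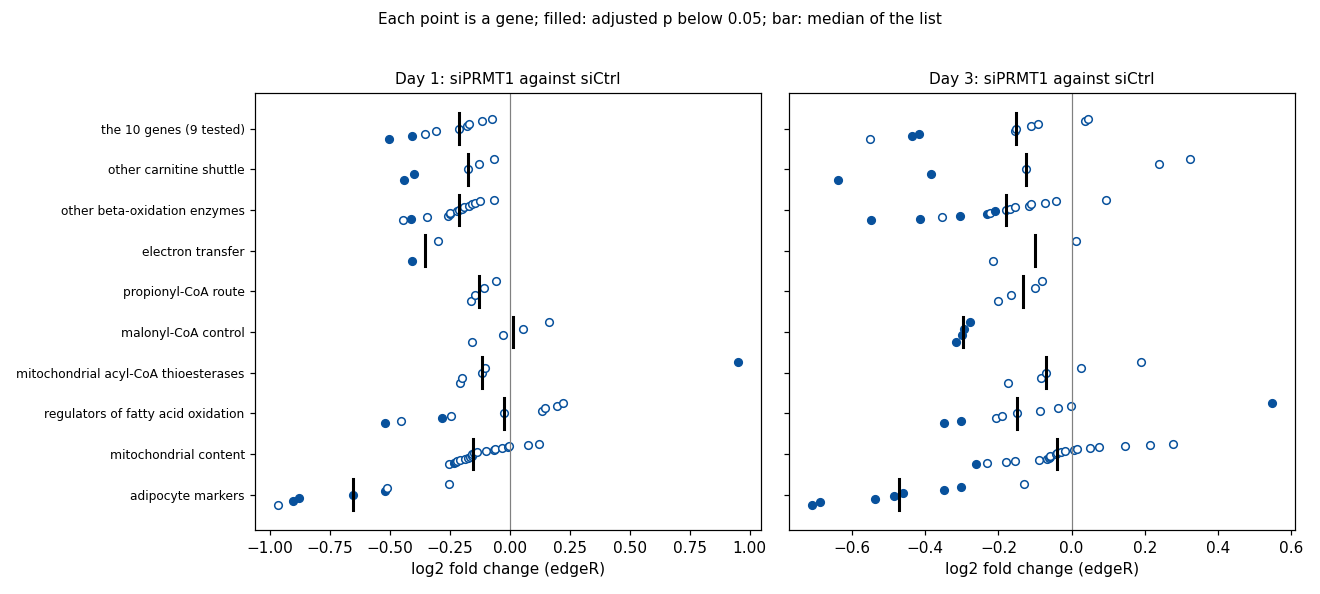
log2 fold changes from edgeR (x axis, a scale of its own in each panel) of siPRMT1 against siCtrl at day 1 (left) and day 3 (right), with a point for each tested gene of the 10 genes and of 9 further lists, filled where the adjusted p was below 0.05, and a bar for the median of the list. Medians lie near or below 0, furthest for the adipocyte markers at -0.65 and -0.47, and Acot2 is the filled point at 0.95 at day 1.

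Markers of differentiation moved with the knockdown as well. Of the 8 adipocyte markers, 7 were tested at day 1 and all 7 were negative, with a median log2 fold change of -0.65. Of these, 4 were called lower, where 1.61% of all genes were. At day 3, 3 of 8 were called lower and 7 passed the adjusted p downwards, where 3.80% and 8.94% of all genes did. Their median was -0.47. Plin1, which coats lipid droplets, had -0.71 and Adipoq, a hormone of fat cells, -0.69. Pparg, which stands in the regulator and the marker list, was lower in siPRMT1 at both days, by edgeR, with -0.52 ± 0.0719 (adjusted p = 0.00659) and then -0.30 ± 0.0631 (adjusted p = 0.00407). Summed, the adipocyte markers ran from 111.7 to 126.4 FPKM in siPRMT1 at day 1 and from 2175 to 2384 FPKM at day 3, below siCtrl at both days. At day 1, 5 of the 7 preadipocyte and fibroblast markers were negative, with Pdgfra at -0.23 (adjusted p = 0.0432) and Ly6a at -0.22 (adjusted p = 0.123), and their sum ran from 1278 to 1307 FPKM, below siCtrl. Pdgfra and Ly6a were higher in siPRMT1 at day 3, by 0.60 and 0.96 on the log2 scale, and the sum of all 7 ran from 595.6 to 676.2 FPKM. Summed macrophage markers ran from 1.76 to 1.89 FPKM in siCtrl and from 2.45 to 2.86 FPKM in siPRMT1 at day 1, and overlapped at day 3. Summed endothelial markers overlapped at day 1 and ran from 0.79 to 0.88 FPKM in siCtrl and from 0.58 to 0.68 FPKM in siPRMT1 at day 3, where Cdh5, of endothelial junctions, was called lower (-1.19 ± 0.361, adjusted p = 0.034). Mitochondrial content genes had medians of -0.15 at day 1 and -0.04 at day 3, with none of 20 called in edgeR at either day. Of these 20, 1 passed the adjusted p downwards at each day, where 4.38% (day 1) and 8.94% (day 3) of all genes did. The part of these markers in the lower levels of Cpt2, Acadvl, Acaa2 and Hadhb was not tested, and in bulk samples fewer differentiated cells and less RNA per cell cannot be told apart.

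The genes whose levels ran most like the mean of the 10 over the 12 libraries were, out of 6240 genes whose mean was 10 FPKM or more, Copz1 (Pearson r = 0.992), Lonp2, Adipor2, Ivd and Eci2 (0.989 each, n = 12). Copz1 is a coatomer subunit of Golgi transport, Lonp2 a protease of peroxisomes, Adipor2 a receptor for adiponectin, Ivd the isovaleryl-CoA dehydrogenase of leucine breakdown, and Eci2 an enoyl-CoA isomerase of fatty acid oxidation. Adipor2, for instance, had means of 69.4 and 54.7 FPKM in siCtrl and siPRMT1 at day 1 and of 187.5 and 149.5 FPKM at day 3. These values share libraries and the split between the days, and many genes that rise with the days would score high.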

How the data were processed

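mRNA libraries (MGIEasy kit) of 3T3-L1 cells gave a table of gene counts and a table of FPKM, both deposited by the authors. The submitters' processing notes name cutadapt 1.11, HISAT2 2.1.0, RSEM 1.2.6 and mm10. Which step made the counts, the strand setting and the handling of multi-mapped reads are not given in the sources used here. The counts deposited are whole and not normalized. The deposited FPKM equal the counts over the listed length and library total (largest difference 0.005). Of the deposited counts, 0.612% lie on 2266 suffixed entries, second copies of a named gene.

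Differences were tested with edgeR 4.0.16 (R 4.3.3; filterByExpr, TMM, quasi-likelihood F test, two-sided, Benjamini-Hochberg over all genes tested), 3 against 3 libraries per comparison, and over all 12 libraries for the interaction. A gene was called at adjusted p below 0.05 and absolute log2 fold change above 0.5. SE is the fold change over the root of F. The fits were run on simulated data with changes larger than the knockdown differences of the 10 genes. That run does not speak to differences of their size. Alternatives were DESeq2 1.42.0, RLE scaling, other filters, limma 3.58.1 on log2(FPKM + 1) or log2(FPKM + 0.1), a replicate block, 1 model, and leaving out each library. The genes and lists were chosen with earlier results of these data known. Named were all 10 genes, Prmt1, of each list at most 4 called genes with the smallest p or else its highest gene (Ckm and Apoa1 for the muscle and liver markers, neither tested), and the 5 genes most like the 10. Genes named beyond this rule were chosen after their values were seen. A listed gene that the rule also names is not reported here. Counting intervals cover counting error only.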

Additional observations from a re-analysis of the deposited data

Results flagged for a closer look

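Acaa2 was the only one of the 9 tested genes whose knockdown difference differed between the days by the interaction test, at 0.56 on the log2 scale (day 3 minus day 1, adjusted p = 0.00279, edgeR). It was 29.5% lower in siPRMT1 at day 1, in 3 of 3 libraries, while at day 3 the siPRMT1 and siCtrl libraries overlapped.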

How the results depend on the processing

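Of 765 log2 fold changes of the 10 genes under alternatives, 721 kept their direction and side of the adjusted p. A few of the 721 belong to Cpt1b, which had no main fit to compare with and was counted as unchanged. Of the rest, 15 newly passed the adjusted p, 11 no longer did and 18 changed sign, none of the last with an adjusted p below 0.182. Called genes of the 10 went from 1 to 0 with each of the limma fits (log2(FPKM + 1), log2(FPKM + 0.1), no filter) at day 1 and for the interaction, and ran from 0 to 1 when 1 library was left out at day 1, at day 3 (1 without siCtrl day 3 replicate 1) and for the interaction (0 without siCtrl day 1 replicate 3). Called genes of the other pathway lists went from 3 to 1 with each limma fit at day 1 and from 4 to 1, 2 and 1 at day 3, and ran from 1 to 3 without 1 library at day 1 and up to 7 for the interaction (without siCtrl day 1 replicate 3). The causes were not tested.

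Sign changes without 1 library came in values near 0. Cpt1a ran from -0.1381 to 0.0106 at day 1 and from -0.0019 to 0.0936 at day 3, and Acadl as named from -0.2839 to 0.043 at day 1. In the interaction, Cpt2 ran from -0.1972 to 0.0435, Acadm from -0.0216 to 0.0814 and Hadha from -0.0334 to 0.0801. The interaction also changed sign for Cpt2 with no filter on low counts (0.0032), for Acadl with the entries summed (0.2524), and under limma for Acadm (-0.0291, -0.0284 and, with no filter, -0.0291) and Hadha (-0.0215, -0.0212 and -0.0215).

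Over all genes, day 1 calls were 487, against 123 (without siPRMT1 replicate 3) to 873 (without siCtrl replicate 3), 246 with limma on log2(FPKM + 1) and 153 with no filter. Day 3 calls were 933, against 388, 569 and 342 with limma. The courses had 5969 and 5186 calls, against 3964 and 3144 with limma on log2(FPKM + 1). Higher and lower calls split 267 to 220 in edgeR at day 1 but 166 to 80 with limma on log2(FPKM + 1), and for the interaction 697 to 507 but 339 to 533, or 264 to 442 with no filter and 902 to 1005 without siCtrl day 1 replicate 3.

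The replicate numbers were not taken to pair the libraries, since the correlation of same-numbered libraries ran from -0.169 to 0.216 and 1 to 3 of 6 libraries correlated best with their own number. With a replicate block, called genes of the 10 stayed at 1, 0, 9, 8 and 1 over the comparisons, and day 1 and day 3 calls over all genes were 536 and 974. Cpt2 passed the adjusted p at day 1 under the block (0.035). With 3 libraries a group and 18 to 57 counts for Acadl as named, its differences were the least precise.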
